A study of Mus musculus with 4 samples.

Results

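XCL1, XCL2, FLT3LG and XCR1 are genes of a signalling route from natural killer (NK) cells to type 1 conventional dendritic cells (cDC1). CLEC9A is a receptor that cDC1 carry. These 5 genes of the 36601 counted were chosen by their symbols in the feature lists, and their unique molecular identifiers (UMIs, each standing for 1 captured RNA molecule) were read in NK, T and dendritic cells of human immune infiltrates. MISTRG mice, which carry human genes for myeloid growth factors, had been engrafted with human fetal liver CD34+ cells and bore orthotopic MDA-MB-231 tumors, a human breast cancer line. Live human CD45+ cells were sorted from the tumors and hashed by mouse, with the treatment given by the hashtag names (7 mice untreated, 7 with maraviroc). They were captured in 2 10x reactions, of which reaction 1 held 4 untreated and 3 treated mice and reaction 2 held 3 untreated and 4 treated mice. Maraviroc was dissolved at 300 mg/l in the water the mice drank from day 21 for 10 days, and the untreated mice carried the same graft and tumor without the drug. All tumors were taken on day 31. The reads were aligned to the human genome, so a ligand made by the mouse stroma is not in these counts.

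XCL1 and XCL2 are near-identical chemokines released by activated NK and CD8 T cells. Their receptor XCR1 is carried by cDC1, the dendritic cells that cross-present antigens of dead cells to CD8 T cells. CLEC9A is a receptor of cDC1 that senses dead cells. FLT3LG is the growth factor that dendritic cells need through the receptor FLT3, and NK and T cells are known sources of it in tumors.

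Cells were kept with more than 600 and at most 6000 genes, a low mitochondrial share and a single hashtag, which left 11917 cells in reaction 1 and 7900 in reaction 2. Median depth was 3020 UMIs per kept cell in reaction 1 and 9691.5 in reaction 2, and each mouse gave 758 to 3030 cells and 5996882 to 14782548 UMIs. Between the reactions 136 barcodes were shared. Classes were gated on marker UMIs that include none of the 5 genes, giving 1455 NK cells, 3939 T cells, 127 cDC1 (3 to 18 per mouse), 97 cDC2, 92 mature dendritic cells, 150 pDC and 10318 macrophages and monocytes, with 23.16% of the cells of reaction 1 and 6.823% of those of reaction 2 in no class. Levels are given as CPM, the UMIs of a gene per 1000000 UMIs of the class, summed per mouse. The 2 reactions differed in lymphocyte RNA found outside the lymphocyte gates. GNLY, a granule protein of NK cells, stood in macrophages and monocytes at 528 CPM in reaction 1 and 23.0 CPM in reaction 2. Whether it was free RNA or came from doublets was not tested. The gates were checked against genes outside them. GNLY stood at 12963 CPM in the NK gate and 1750 CPM in the T gate, and FLT3 at 112 CPM in the cDC1 gate against 0.632 CPM in macrophages and monocytes. CD3E, a chain of the T cell receptor complex, separated the lymphocyte gates poorly. It stood at 186 CPM in the NK gate and 293 CPM in the T gate, against 9.70 CPM in macrophages and monocytes. The NK gate capped TRAC, CD5 and CD6 UMIs and did not use CD3E. Whether T cells entered the NK gate was not tested.

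XCL1 and XCL2 had their highest per-mouse medians in NK cells, and FLT3LG in T cells. In 1 mouse, maraviroc 3, the cDC1 gate held more XCL1 than the NK cells (500.2 against 385 CPM). That excess rested on 1 cell with 75 XCL1 UMIs, among 18 cDC1. Per mouse, XCL1 in NK cells ranged from 385 to 1132 CPM with a median of 856 CPM, while in T cells it ranged from 59.4 to 390 CPM with a median of 118 CPM (14 mice). XCL2 ranged from 589 to 1291 CPM in NK cells, with a median of 1030 CPM, and from 64.2 to 520 CPM in T cells, with a median of 154 CPM. The level in NK cells exceeded that in T cells of the same mouse in 14 of 14 mice for both genes, by 1.83 to 16.6 times for XCL1 and by 2.25 to 15.4 times for XCL2. The smallest of the XCL1 ratios came from maraviroc mouse 3, the mouse with the lowest XCL1 in NK cells.

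**Figure D1:**
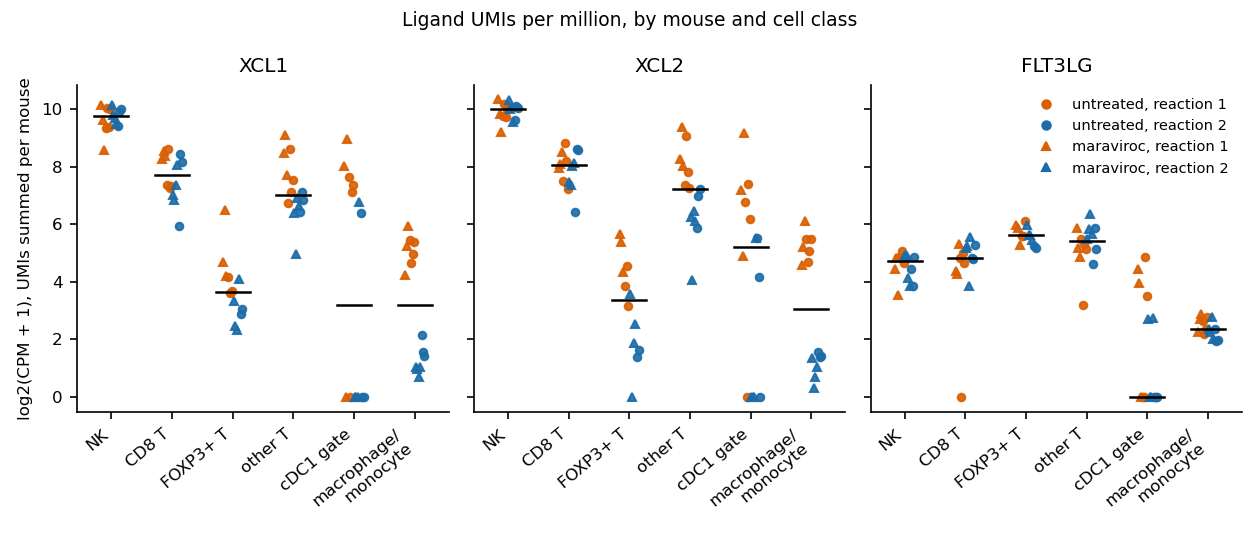
XCL1, XCL2 and FLT3LG CPM in 6 cell classes, on a log2(CPM + 1) axis. Each point is 1 mouse (circles untreated, triangles maraviroc, orange reaction 1, blue reaction 2) and the line is the median: NK cells stand highest for XCL1 and XCL2 and T cells for FLT3LG, and the macrophage points of reaction 1 lie above those of reaction 2 for both XCL genes.

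In edgeR's quasi-likelihood test with Benjamini-Hochberg adjustment, blocked by mouse, XCL1 was higher in NK cells than in T cells by 2.63 on the log2 scale (SE 0.23, adjusted p = 7.04e-09) and XCL2 by 2.69 (SE 0.22, adjusted p = 3.29e-09). Among all 8973 genes tested 17.1% were higher and 18% were lower in NK cells. FLT3LG went the other way and was lower in NK cells by 0.81 on the log2 scale (SE 0.16, adjusted p = 0.000488). FLT3LG ranged from 10.6 to 32.8 CPM in NK cells (median 25.5 CPM) and from 6.50 to 51.2 CPM in T cells (median 37.6 CPM), so the ranges overlapped, and T cells held more than NK cells of the same mouse in every mouse but untreated 2. In reaction 1 alone the FLT3LG difference was -0.58 with an adjusted p of 0.117. Because the 2 chemokine transcripts are near-identical, the split of reads between XCL1 and XCL2 is uncertain.

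The XCL difference between NK and T cells was smaller in reaction 1, where XCL UMIs were also found in cells that should lack them. The mean log2 ratio of XCL1 between NK and T cells was 1.94 ± 0.84 (SD, n = 7 mice) in reaction 1 and 3.27 ± 0.59 (SD, n = 7 mice) in reaction 2. Macrophages and monocytes held 17.95 to 60.3 CPM of XCL1 in reaction 1 (median 37.3 CPM) and 0.628 to 3.42 CPM in reaction 2 (median 1.06 CPM). With the level in macrophages of the same mouse subtracted from both classes, a step chosen after seeing the data, the ratios became 2.22 and 3.29. The UMIs per cell differed in the same way: 67.0% of the 769 macrophages with XCL1 in reaction 1 held exactly 1 UMI, against 24.2% of the 571 NK cells with XCL1. At least 3 XCL1 UMIs were held by 114 of those macrophages, with up to 48 in 1 cell, and by 348 of those NK cells. In reaction 2, 67 macrophages of 3978 had an XCL1 UMI and 94.0% of them had exactly 1, while 449 of 582 NK cells had one, with a median of 7 UMIs. Median depth was 3747.5 UMIs per macrophage and 4006 UMIs per NK cell in reaction 1, and 12482.5 and 7902 UMIs in reaction 2.

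NK cells made up 7.33% of the kept cells of reaction 1 and held 41.4% of its XCL1 UMIs. In reaction 2 they made up 7.37% of cells and held 61.4%. T cells held 15.3% and 19.8% of XCL1 UMIs. Another 25.9% and 17.1% lay in cells of no class, which met the rules of no gate. Of the ungated cells with at least 3 XCL UMIs, 78.4% (of 347) in reaction 1 and 97.0% (of 135) in reaction 2 also had a UMI of the NK list, against 22.2% and 21.8% of ungated cells without XCL UMIs. Their median depths were 3253 and 8987 UMIs, above the 1561.5 and 4733 UMIs of the ungated cells without XCL.

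T cells held 41.4% of the FLT3LG UMIs of reaction 1 and 65.7% of those of reaction 2. The numerous macrophages and monocytes held 26.3% and 16.8%, and NK cells 15.9% and 9.83%. Over classes, the per-mouse median of FLT3LG was 48.0 CPM in FOXP3+ T cells, 41.4 CPM in the T cells with neither CD8 nor FOXP3 UMIs (other T cells), 27.5 CPM in CD8 T cells, 25.5 CPM in NK cells and 4.12 CPM in macrophages and monocytes. The neighbours FOXP3+ T and other T cells, and CD8 T and NK cells, had overlapping ranges. B cells, with 0 to 24 cells per mouse, had no FLT3LG UMI in the median mouse and at most 25.7 CPM. Summed over the cells of each reaction and averaged, they held 10.8 CPM, against 4.33 CPM in macrophages and monocytes. Likeness over the 9 classes was ranked among 12132 genes at 10 CPM or more in some class, with all gate markers left out. Of these, the genes most like FLT3LG were METTL2B (Pearson r = 0.988 over 9 classes), AP002387.2 (0.963), PLEKHF1 (0.951), SDHAF2 (0.943) and FRG1 (0.943).

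Across the lymphocyte classes XCL1 had its order NK cells, CD8 T cells (median 213 CPM), other T cells (129 CPM) and FOXP3+ T cells (11.6 CPM). The ranges of NK cells and CD8 T cells met, at 385 CPM in the lowest NK and 390 CPM in the highest CD8 T sample. The median of the cDC1 gate was 41.5 CPM, between other T and FOXP3+ T cells, that of macrophages and monocytes was 10.7 CPM, and the median was 0 in B cells, cDC2, mature dendritic cells, pDC and mast cells. The dendritic classes held few cells per mouse, and 1 cell held 75 of the 145 XCL1 UMIs of the cDC1 gate in reaction 1. Summed over the cells of each reaction and averaged, XCL1 was 147 CPM in the cDC1 gate and 127 CPM in all T cells. By that measure it was 34.6 CPM in mature dendritic cells and 19.5 CPM in macrophages and monocytes. The T cell split used raw CD8 and FOXP3 UMIs, so a shallow CD8 T cell can fall among other T cells. Median depth was 5422 UMIs in CD8 T and 2394 UMIs in other T cells of reaction 1, and 6975.5 and 6451 UMIs in reaction 2. The part of depth in their differences was not tested. CD8 and other T cells were not told apart for XCL1: the difference was 0.42 on the log2 scale (SE 0.17, edgeR adjusted p = 0.0991, 12 mice with at least 10 cells of each). XCL2 was higher in CD8 T cells by 0.71 (SE 0.24, adjusted p = 0.0443) and FLT3LG lower by 0.57 on that scale (SE 0.19, adjusted p = 0.0398), in a comparison in which 9.54% of 8106 genes were higher and 11.1% lower. Both calls were near the threshold. Leaving out 1 mouse ended the XCL2 call for 8 of the 12 mice and the FLT3LG call for 7 of the 12, DESeq2 gave XCL2 an adjusted p of 0.0866, and XCL2 was -0.07 in reaction 1 alone and 1.51 in reaction 2 alone.

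FOXP3+ T cells, the regulatory subset, held far less XCL than other T cells but no less FLT3LG. XCL1 ranged from 3.97 to 89.7 CPM in FOXP3+ T cells (median 11.6 CPM) and from 30.1 to 545 CPM in other T cells (median 129 CPM), and was lower in FOXP3+ T cells in 12 of 12 mice (two-sided exact sign-flip permutation test, p = 0.000488, the smallest it can give, and 0.000977 adjusted over 6 such tests). XCL2 was likewise lower in 12 of 12 mice, with medians of 9.53 and 139 CPM (exact permutation p = 0.000488). FLT3LG had medians of 48.0 and 44.0 CPM and was higher in FOXP3+ T cells in 8 of 12 mice (exact permutation p = 0.498). That gene differed by reaction, being higher in FOXP3+ T cells in 6 of 6 mice of reaction 1 and in 2 of 6 of reaction 2. Median depth was 6113 UMIs in FOXP3+ T and 2394 UMIs in other T cells of reaction 1, and 6920 and 6451 UMIs in reaction 2. The part of depth was not tested. The 6 tests, on FOXP3+ T cells and on cycling NK cells, were chosen after seeing the data.

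Cycling NK cells, gated on MKI67 and TOP2A, numbered 463 of the 1455 NK cells and held less of the ligands per UMI than the remaining NK cells. The gate counted raw UMIs, which deeper cells reach more easily, and ligand UMIs per cell were not compared. XCL1 ranged from 343 to 1010 CPM in cycling NK cells (median 670 CPM) and from 424 to 1368 CPM in the others (median 1015 CPM), and was lower in the cycling cells of 14 of 14 mice (exact permutation p = 0.000122, the smallest possible, adjusted p = 0.000732). XCL2 was lower in 11 of 14 mice, with medians of 874 and 1025 CPM (exact permutation p = 0.00501, adjusted p = 0.00751). FLT3LG was lower in 10 of 14 mice, with medians of 14.8 and 24.3 CPM (exact permutation p = 0.0298, adjusted p = 0.0357), but in reaction 1 alone the exact permutation p was 0.5, and the call was lost on leaving out 4 of the 14 mice in turn.

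**Figure D2:**
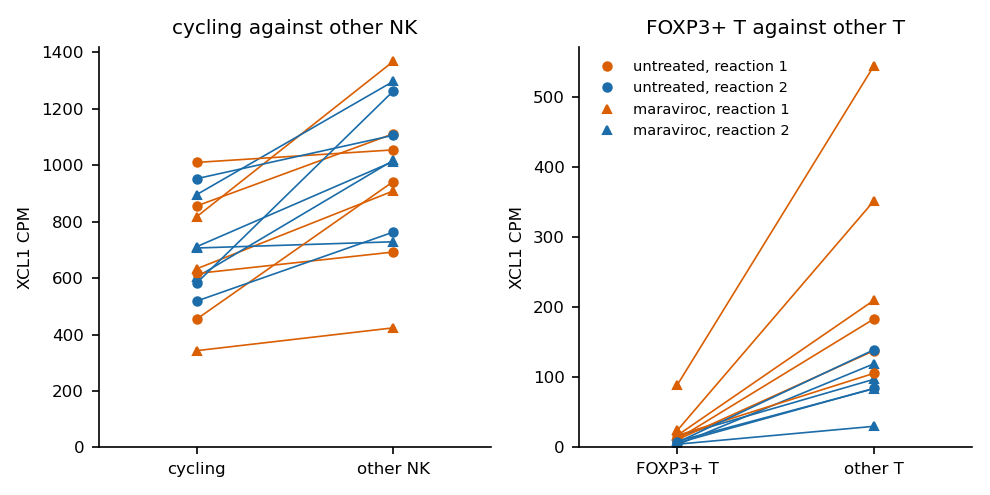
XCL1 CPM in cycling and other NK cells (left, 14 mice) and in FOXP3+ T and other T cells (right, 12 mice). Each line joins the values of 1 mouse, with circles for untreated and triangles for maraviroc mice, orange for reaction 1 and blue for reaction 2: every line rises from left to right in both panels.

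XCL1 and XCL2 were detected together in part of the NK cells. To take depth out of the shares, each NK cell was thinned to 2000 UMIs, which left 1232 cells and excluded 223 shallower ones, 218 of them in reaction 1. After thinning 58.8% of NK cells had an XCL1 UMI, 65.0% had an XCL2 UMI, 47.2% had both and 76.6% had either. Of the cells with XCL1, 80.3% also had XCL2. The share with XCL1 was 59.1% in reaction 1 and 58.6% in reaction 2 after thinning, against 65.4% and 77.1% before it. A cell without an XCL UMI may still hold the transcript below detection.

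NK cells with an XCL UMI were then compared with those without, over 12 mice with at least 10 cells of each kind (756 and 271 cells), to see which genes accompany the ligands. Of 1635 genes tested, 4.1% were higher in the cells with XCL, XCL1 and XCL2 themselves among them by construction, 3.3% were lower and 7.4% passed in either direction. CRTAM, an adhesion receptor of activated NK and T cells, had a median of 346 CPM in the cells with XCL and 18.8 CPM in those without, was higher in 10 of 12 mice and differed by 2.08 on the log2 scale (SE 0.37, edgeR adjusted p = 0.000395). In reaction 1 alone CRTAM differed by 1.46 and did not pass, and BACH2 did not pass with strict gates (0.48) nor PRKCA with thinning to 1000 UMIs (-0.37). With strict gates 2 genes passed in the whole comparison, in which XCL1 and XCL2 differ by construction. Most of the genes named for this comparison therefore did not pass or were not tested with strict gates. BACH2, a transcriptional repressor that restrains effector differentiation, had medians of 579 and 189 CPM, was higher in 12 of 12 mice and differed by 1.41 (SE 0.19, adjusted p = 8.99e-06). The lncRNA AL136456.1 was higher by 0.98 (SE 0.25, edgeR adjusted p = 0.0119). That call was lost with a hashtag quantile of 0.95 (0.72), with thinning to 1000 UMIs (0.22) and in reactions 1 (0.95) and 2 (1.03) alone.

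Genes that were lower in the XCL+ NK cells included PRKCA, a protein kinase C, which was higher without XCL in 12 of 12 mice, with medians of 228 CPM with and 500 CPM without XCL (log2 difference -0.99, SE 0.15, edgeR adjusted p = 2.20e-05). ITGAE, the CD103 integrin chain of tissue-resident lymphocytes, was lower by 1.05 on the log2 scale (a call lost with all genes tested, -0.80, and in reaction 1 alone, -0.73), DOCK4, a guanine nucleotide exchange factor, by 1.82 and ZSWIM6 by 0.99. The remaining genes among the 10 with the largest changes, with XCL1, XCL2 and gate markers left out, were CST3 (-1.31), CXCL8 (-1.64) and VCAN (-1.26). Myeloid cells express these genes highly, and the VCAN call (edgeR adjusted p = 0.0489) was lost on leaving out 6 of 11 mice in turn. The 6 macrophage list genes were all detected in both kinds of NK cells, with a summed level of 9.26 to 276 CPM (median 107 CPM) with XCL and 38.5 to 368 CPM (median 113 CPM) without, higher without XCL in 9 of 12 mice. The summed NK list was higher with XCL in 11 of 12 mice, at 1632 to 2390 CPM against 1154 to 2143 CPM. The summed cDC1 list was also higher with XCL, in 10 of 12 mice (medians 216 and 152 CPM). The T and B lists were higher with XCL in 8 of 12 mice each. The part of these lists in the differences was not tested. The 8 genes of the pathway lists that could be tested gave 0 calls in edgeR and 4 at an unadjusted p under 0.05, CCL4 (log2 difference 0.28, SE 0.12) and ID2 (0.35, SE 0.13) among them. With gate markers left out, CRTAM was also among the 5 genes whose levels over the 9 gated classes were most like those of XCL1 (Pearson r = 0.951 over 9 classes, a description across classes that share libraries), with NOM1 (0.973), XCL2 (0.956), TRGV9 (0.956) and DAZAP1 (0.951).

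The same cells differed in further signals of the route. A list of 33 genes of the NK, T and dendritic cell exchange, chosen with earlier results of these data known, had 26 tested members between NK and T cells, of which 11 were higher in NK cells, 9 lower and 6 not called, beside 17.1% higher and 18% lower among all genes. Its median was 0.20 on the log2 scale, beside -0.01 over all genes tested. Of the lymphocyte signals, NK cells were higher in the chemokines CCL3 (1.30, SE 0.17), CCL4 (1.17, SE 0.18) and CCL5 (0.88, SE 0.12), in CSF2 (1.35, SE 0.31), which encodes GM-CSF, and in TNFSF14 (0.99, SE 0.13). T cells were higher in LTA (-1.81, SE 0.18) and TNF (-0.64, SE 0.18). They were also higher in CD40LG, the ligand that licenses dendritic cells, at a median of 23.4 CPM (7.14 to 39.9 CPM) against 0 CPM in NK cells (0 to 5.98 CPM). CD40LG passed the filter on low counts in 1 of the 14 fits that each left out a mouse, so its fitted difference of -4.82 rests on few NK counts. IFNG was at 47.7 to 169 CPM in NK cells and 26.0 to 179 CPM in T cells and was not called (0.20, SE 0.14, edgeR adjusted p = 0.308).

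Among genes by which lymphocytes receive dendritic cell products, the IL-15 receptor chain IL2RB (1.22, SE 0.075) and KLRB1 (1.07, SE 0.10) were higher in NK cells. CXCR6, the receptor of CXCL16, was lower (-3.14, SE 0.28), as were IL18R1 (-1.71, SE 0.14) and CXCR3, the receptor of CXCL9 and CXCL10 (-0.56, SE 0.13). Further calls of the list were ID2 (0.89), IRF8 (1.91), NFIL3 (0.75) and IL15 (1.11), higher in NK cells, and CCR7 (-3.25) and TNFSF9 (-0.73), lower. CCR7, at a median of 2.76 CPM in NK cells and 28.9 CPM in T cells, could be tested in 2 of the 14 fits that left out a mouse, and the call of TNFSF9 was lost on leaving out 9 of the 14 mice in turn.

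Between CD8 and other T cells the list had 24 tested members, with 7 higher, 5 lower and 12 not called, beside 9.54% higher and 11.1% lower among all genes, and a median of 0.18 beside 0.01. CD8 T cells were higher in CCL5 (1.47, SE 0.14), CCL3 (1.25, SE 0.27), TNFSF9 (1.15, SE 0.25), CCL4 (0.87, SE 0.22), IFNG (0.76, SE 0.26), IL2RB (0.61, SE 0.13) and ID2 (0.42, SE 0.09). The IFNG call, at an adjusted p of 0.0405 in edgeR, was lost on leaving out 7 of the 12 mice in turn. CSF2 was lower by 2.26 on the log2 scale (SE 0.37), and CCR7, CXCL10, IL18R1 and KLRB1 were lower as well.

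The cDC1 gate held most of the UMIs of XCR1, the receptor of the XCL chemokines, and of CLEC9A, a receptor for dead cells. The 127 cells of that gate were 0.587% of the kept cells of reaction 1 and 0.722% of those of reaction 2, but held 40 of 76 XCR1 UMIs (52.6%) and 102 of 146 (69.9%). For CLEC9A they held 80 of 151 UMIs (53.0%) and 179 of 226 (79.2%). Most of the rest lay in the many macrophages and monocytes, which had an XCR1 UMI in 58 of 10318 cells (0.562%) and a CLEC9A UMI in 76 (0.737%).

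XCR1 in the cDC1 gate ranged from 0 to 198 CPM over mice, with a median of 70.1 CPM, while the median of macrophages and monocytes was 0.521 CPM. CLEC9A ranged from 70.5 to 467 CPM in the cDC1 gate (median 192 CPM) and from 0.388 to 1.76 CPM in macrophages and monocytes (median 1.02 CPM). The 2 mice with no XCR1 UMI, untreated 2 and untreated 3, had 3 and 7 cDC1. No XCR1 UMI was seen in the 97 cDC2, which allows up to 8.45 CPM in reaction 1 and 3.09 CPM in reaction 2 (3 counts of the total, counting error only). NK cells had no CLEC9A UMI, which allows up to 0.620 and 0.576 CPM, and 2 XCR1 UMIs in 1455 cells.

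**Figure D3:**
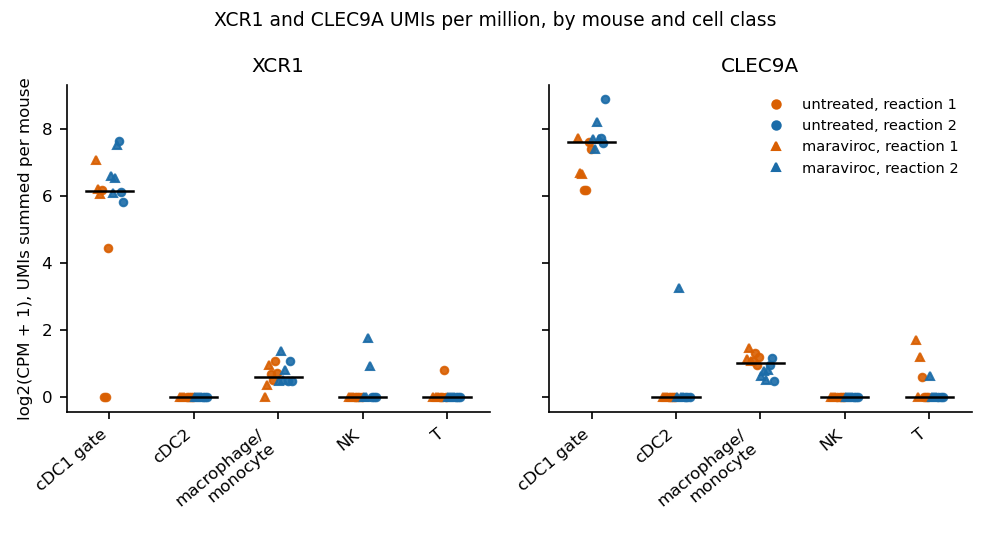
XCR1 and CLEC9A CPM in 5 cell classes, on a log2(CPM + 1) axis. Each point is 1 mouse (circles untreated, triangles maraviroc, orange reaction 1, blue reaction 2) and the line is the median: the cDC1 gate stands apart for both genes, apart from the 2 mice with no XCR1 UMI among 3 and 7 cDC1.

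The test planned for cDC1 needed 10 cells per mouse and class, which too few mice had, so a minimum of 3 cells was set after seeing the data. Against macrophages and monocytes, over 14 mice, CLEC9A was higher in the cDC1 gate by 7.497 on the log2 scale (SE 0.30, edgeR adjusted p = 7.67e-21) and FLT3, the receptor of FLT3LG, by 7.35 (SE 0.43, adjusted p = 2.29e-16). In that comparison 12.1% of 10088 genes were higher and 25.9% lower, and the median of all genes was -0.21. XCR1 was too sparse for the filter on low counts. With all genes of at least 1 count, of which 5.48% were higher, it was higher by 6.64 (SE 0.40, adjusted p = 1.71e-15).

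Against cDC2, over 10 mice, 17.1% of 1600 genes were higher in cDC1, and neither receptor passed the filter. With all genes of at least 1 count, 3.12% were higher. There FLT3 was higher by 3.64 on the log2 scale (SE 0.51, edgeR adjusted p = 1.15e-10). For the receptors with 0 to 2 UMIs in cDC2, ratios of the summed counts were taken in place of the fitted folds. XCR1 per UMI was at least 8.33-fold higher in cDC1 than in cDC2 in reaction 1 and at least 40.3-fold higher in reaction 2, taking 3 counts over the cDC2 of the reaction as the floor. CLEC9A was at least 16.7-fold higher in reaction 1, and in reaction 2, with 179 against 2 UMIs, 106 times higher (95% counting interval 28.9 to 882). FLT3 was highest in mature dendritic cells, at 522 CPM over the reactions' mean, then in the cDC1 gate at 112 CPM, in pDC at 51.5 CPM and in cDC2 at 6.93 CPM.

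The 2 receptors were often detected in the same cDC1. In reaction 1, 17 of 70 cDC1 (24.3%, exact 95% interval 14.8 to 36.0%) had an XCR1 UMI and 30 (42.9%, 31.1 to 55.3%) a CLEC9A UMI. In reaction 2, with a median of 14128 UMIs per cDC1 against 5294.5, the counts were 31 of 57 (54.4%, 40.7 to 67.6%) and 39 (68.4%, 54.8 to 80.1%). Those intervals pool the cells of all mice of a reaction and cover counting error only, not the spread between mice. Of the 48 cDC1 with XCR1, 89.6% also had CLEC9A. Over all kept cells 47 had both, of which 43 were in the cDC1 gate, 1 was a macrophage or monocyte and 3 were in no class. Over the 9 classes, with gate markers left out, CLEC9A was the gene most like XCR1 (Pearson r = 0.988 over 9 classes), followed by KCND3 (0.986), CTNND2 (0.984), LINC02206 (0.983) and PPY (0.976). The XCR1 and CLEC9A profiles over classes rest on the cDC1 gate alone.

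Of the dendritic cell genes on the list, IRF8, the transcription factor that specifies cDC1, was higher in cDC1 than in cDC2 by 3.27 on the log2 scale (SE 0.31, edgeR adjusted p = 9.77e-07) and ID2 by 1.62 (SE 0.25). Both were also higher than in macrophages and monocytes (2.87, SE 0.16, and 1.22, SE 0.18), as was ZBTB46, a factor of conventional dendritic cells (2.20, SE 0.34), while NFIL3 was lower (-1.34, SE 0.29). cDC1 were lower than macrophages and monocytes in the chemokine receptor CCR1 (-3.88, SE 0.38) and in the chemokines CXCL10 (-3.99, SE 0.51), CCL3 (-3.11, SE 0.33) and CCL4 (-2.49, SE 0.38). IL12B, a subunit of the cytokine IL-12, had a median of 0 and at most 10.4 CPM in the cDC1 gate.

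The cDC1 gate also held XCL UMIs and those of some other genes of the lymphocyte lists. XCL1 was higher there than in macrophages and monocytes by 2.70 on the log2 scale (SE 0.43, edgeR adjusted p = 2.94e-06) and XCL2 by 2.23 (SE 0.39). CXCR3 (3.91), KLRB1 (2.31), IL18R1 (4.34), IL2RB (1.89), IL12RB2 (1.66) and TNF (2.02), all on the lymphocyte lists, were higher too. Of the same lists CCL5 (0.09, SE 0.34) and IL2RG (0.00, SE 0.19) were not called, and CCL3 and CCL4 were lower, as given above. TNF stood at 75.4 CPM in the cDC1 gate, above the 25.9 CPM of NK cells and 33.9 CPM of T cells (means of the reactions). The list had 23 tested members in this comparison, 10 higher and 6 lower, beside 12.1% higher and 25.9% lower among all genes, and a median of 0.48 beside -0.21. The share of lower members was near that of all genes. GNLY stood at 703 CPM in the cDC1 gate of reaction 1 and 97.5 CPM in that of reaction 2, beside 528 and 23.0 CPM in macrophages and monocytes.

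Few cells accounted for the XCL1 of the gate. In reaction 1, 7 of its 70 cells had at least 3 XCL1 UMIs and held 132 of 145 UMIs, with 75 in 1 cell. Of the 7, 6 had a UMI of the NK list and 1 had an XCR1 or CLEC9A UMI. In reaction 2, 3 of 57 cells held all 32 XCL1 UMIs and none of the 3 had a UMI of either receptor or of the NK list. The cDC1 with an XCR1 or CLEC9A UMI held XCL1 at 27.3 CPM in reaction 1 and 0 in reaction 2, which allows up to 4.84 CPM. The cells of the gate with neither receptor held 671 and 159 CPM.

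The cDC1 were a larger share of myeloid cells in maraviroc-treated mice. Among the gated dendritic cells, macrophages and monocytes, cDC1 were 0.461 to 1.40% in untreated mice (median 0.785%, mean 0.916 ± 0.380%, SD, n = 7) and 1.06 to 2.23% in treated mice (median 1.47%, mean 1.53 ± 0.377%, SD, n = 7). The groups overlapped, since 3 untreated mice lay above the lowest treated mouse. The difference of 0.610 percentage points had a p of 0.0114 in a two-sided exact permutation test within reactions, and of 0.0343 after adjustment over the 3 shares tested. Each reaction gave the same direction, by 0.603 points in reaction 1 (exact permutation p = 0.0857) and 0.556 points in reaction 2 (p = 0.171 by the same exact test). At most 18 cDC1 stood behind a mouse's share. The shares of the other dendritic classes were not tested, nor was whether the rise was particular to cDC1. Mature dendritic cells numbered 0 to 8 per untreated mouse and 1 to 20 per treated mouse. For pDC the counts were 3 to 24 and 8 to 22, and for cDC2 1 to 13 and 1 to 16. Leaving out single mice gave 0.492 to 0.690 points, with exact permutation p from 0.00714 to 0.0271, but with a looser hashtag threshold (0.435 points, exact permutation p = 0.0580) and with gates scaled to each list's own level (0.389 points, p = 0.0588), the second chosen after seeing the data, the difference did not pass.

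**Figure D4:**
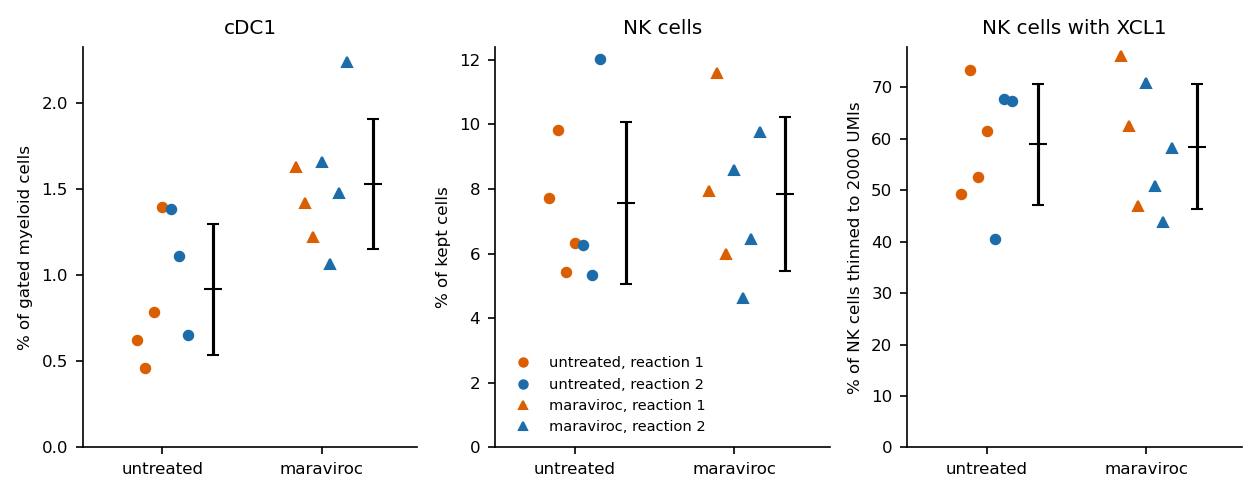
cDC1 as a percentage of gated myeloid cells, NK cells as a percentage of kept cells and NK cells with an XCL1 UMI as a percentage of NK cells thinned to 2000 UMIs. Each point is 1 mouse (circles untreated, triangles maraviroc, orange reaction 1, blue reaction 2) and bars are the mean ± SD of 7 mice: cDC1 averaged 0.916% in untreated and 1.53% in treated mice, and the other shares had nearly equal means.

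Pooled over mice and reactions, the part of the gate with a receptor UMI was nearly equal in both groups. The pooling mixed reactions of unlike depth, with a receptor UMI in 48.6% of the cDC1 of reaction 1 and 70.2% of those of reaction 2. Untreated mice gave 32 and 21 cDC1 in reactions 1 and 2, and treated mice 38 and 36. Within reactions this part was not compared. An XCR1 or CLEC9A UMI was present in 31 of 53 cDC1 (58.5%) of untreated mice and 43 of 74 (58.1%) of treated mice, and a UMI of the NK list in 28.3% and 18.9%, at median depths of 7240 and 10807 UMIs per cDC1. When only cDC1 with a receptor UMI were counted, a step also chosen after seeing the data, the difference was 0.379 points (exact permutation p = 0.0253, not adjusted). The median depth of myeloid cells per mouse was 3567 to 5252 UMIs in untreated and 2981 to 5877 UMIs in treated mice of reaction 1, and 12257 to 13024 and 11957.5 to 13166 UMIs in reaction 2. The part of depth in the shares was not tested.

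For NK cells and their XCL1 no difference was detected. NK cells were 5.35 to 12.0% of kept cells in untreated mice (median 6.34%, mean 7.57 ± 2.51%, SD, n = 7) and 4.62 to 11.6% in treated mice (median 7.93%, mean 7.85 ± 2.38%, SD, n = 7), with an exact permutation p of 0.838. The share of thinned NK cells with XCL1 had means of 58.9 ± 11.8% and 58.5 ± 12.2% (SD, n = 7 each, exact permutation p = 0.9502). Mice of each group spanned more than the difference between the groups in both shares.

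Levels within NK cells were not distinguishable between treatments. XCL1 in NK cells was 647 to 1040 CPM in untreated mice (median 954 CPM) and 385 to 1132 CPM in treated mice (median 832 CPM), a log2 difference of -0.07 (SE 0.19). XCL2 gave -0.01 (SE 0.15), with medians of 1030 and 1031 CPM, and FLT3LG -0.25 (SE 0.25), with medians of 27.3 and 20.7 CPM. In this comparison 0% of 7977 genes were called by edgeR, 248 had an unadjusted p under 0.05, and DESeq2 called 0 as well. A self-test on simulated counts recovered 86% of 200 genes changed by 1 on the log2 scale among 7803 genes of NK cells. It changed all 200 genes at once and held no reaction effect. It therefore does not give the power to find a single changed ligand.

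T cells gave 0% of 10837 genes called, with 465 at an unadjusted p under 0.05 and 0 by DESeq2. XCL1 in T cells was 61.9 to 390 CPM in untreated mice (median 118 CPM) and 59.4 to 373 CPM in treated mice (median 93.1 CPM), a difference of 0.22 on the log2 scale (SE 0.31). XCL2 gave 0.00 (SE 0.31). FLT3LG in T cells was 6.50 to 42.0 CPM in untreated mice (median 37.2 CPM) and 33.4 to 51.2 CPM in treated mice (median 45.4 CPM), a difference of 0.34 (SE 0.16) with an unadjusted p of 0.0475 and an adjusted p of 0.999993 in edgeR. Reaction 1 alone gave -0.02. Of the list, LTA (0.85, SE 0.29) and IL12RB2 (0.56, SE 0.22) were the 2 of 27 tested genes with an unadjusted p under 0.05.

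**Figure D5:**
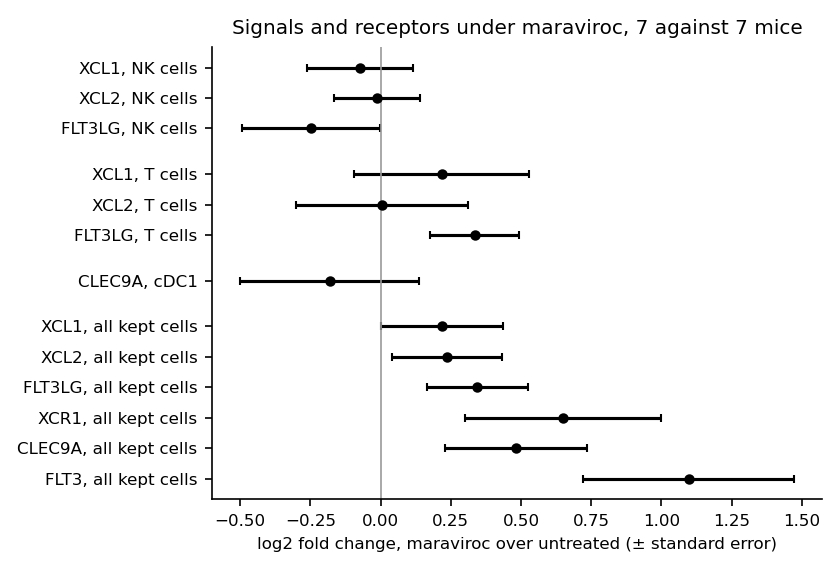
Log2 fold change of the ligands and receptors between maraviroc-treated and untreated mice, with its standard error, in NK cells, T cells, the cDC1 gate and all kept cells (7 against 7 mice). No point passed the adjusted threshold, and the points of XCR1 (0.65), CLEC9A (0.48) and FLT3 (1.10) in all kept cells lie to the right of 0.

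Within the cDC1 gate CLEC9A was 70.5 to 467 CPM in untreated mice (median 189 CPM) and 98.7 to 290 CPM in treated mice (median 204 CPM), a difference of -0.18 on the log2 scale (SE 0.32). XCR1 was 0 to 198 CPM (median 54.9 CPM) and 65.8 to 182 CPM (median 91.7 CPM) and was too sparse to be tested after the filter. Of 1560 genes tested in this gate 0% were called, with 44 at an unadjusted p under 0.05 and 0 by DESeq2. With 3 to 18 cells per mouse the simulation for this gate, on 1398 genes, recovered 48.5% of 200 genes changed by 1 on the log2 scale. It had the same limits as that for NK cells.

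The 5 genes were also summed over all kept cells. In such sums fewer cells of a type and less RNA per cell cannot be told apart. XCR1 was 0.311 to 2.37 CPM in untreated mice (median 1.01 CPM) and 1.12 to 3.09 CPM in treated mice (median 1.51 CPM), a difference of 0.65 on the log2 scale (SE 0.35). CLEC9A was 1.24 to 3.14 CPM (median 2.06 CPM) and 1.81 to 5.33 CPM (median 2.73 CPM), a difference of 0.48 (SE 0.25). For FLT3 the difference was 1.10 (SE 0.38), for FLT3LG 0.34 (SE 0.18), for XCL1 0.22 (SE 0.22) and for XCL2 0.24 (SE 0.19). The adjusted edgeR p of each was 0.969, and 0% of 15076 genes were called by edgeR, with 621 at an unadjusted p under 0.05 and 1 call by DESeq2.

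Whether mice with more ligand held more cDC1 was read over the 14 mice as 3 relations. The cDC1 share and the NK share gave Pearson's r = 0.01 (permutation p = 0.962) and Spearman's rho = 0.14 (permutation p = 0.627). The cDC1 share and the summed XCL1 and XCL2 CPM of all kept cells gave r = -0.08 (permutation p = 0.794) and rho = -0.05 (permutation p = 0.880). For FLT3LG, r was 0.51 (permutation p = 0.0609, 0.183 adjusted over the 3) and rho 0.40 (permutation p = 0.156). Within reactions the FLT3LG relation was r = 0.17 in reaction 1 and 0.65 in reaction 2. Without the 2 mice farthest from the median FLT3LG level r fell to 0.21, so that the relation rested on those mice. They were untreated 7 (7.21 CPM) and untreated 2 (7.46 CPM), with 14 and 47 T cells. All 3 relations pooled untreated and treated mice and were not adjusted for treatment or for the number of T cells. For the NK share r was 0.02 in reaction 1, 0.04 in reaction 2 and 0.23 without the 2 farthest mice, and for XCL it was 0.29, 0.10 and -0.41.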

How the data were processed

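Human CD45+ cells from the tumors of 14 mice were captured in 2 10x 3' reactions with 7 hashtags each. The authors deposited raw UMI counts per barcode and gene, made with Cell Ranger 9.0.1 (per the labels) on the human genome build GRCh38. No normalized values were used. Barcodes with more than 600 and at most 6000 genes and a mitochondrial share under 12.5% were kept (27645 in reaction 1 and 10161 in reaction 2), and hashtags were called with HTODemux in Seurat 5.3.0 at a quantile of 0.99. Over all 29120 and 13582 barcodes, before the filters, it called 10631 and 3380 hashtag doublets and 5754 and 180 barcodes without a hashtag. Both kinds were left out, which left 11917 and 7900 filtered cells, and no other doublet caller was run. The kept cells held 60902086 and 85567597 UMIs.

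A cell was assigned to the marker list with its highest UMI sum, given at least 2 UMIs for T, NK and B cells, 3 for dendritic, macrophage and monocyte lists and 5 for mast cells. Tied lists left a cell in no class, and dendritic gates also needed UMIs of at least 2 list genes. The T list was CD3D, CD3G, TRAC, CD5 and CD6. The NK list was KLRF1, KLRD1, KLRC1, NCAM1, NCR1, SH2D1B and KIR2DL4, and NK cells also had to hold fewer than 2 UMIs of TRAC, CD5 and CD6 together. The cDC1 list was CADM1, CLNK, WDFY4, BATF3 and C1orf54, with CADM1 or CLNK required, and the cDC2 list was CD1C, FCER1A, CLEC10A and CD1E. The macrophage and monocyte list included CSF1R, CD14, MS4A7, CD163 and FCN1. Some list members enter the gates and counts but are not reported here by name. The hashtagged mice were the replicates, and cells were never tested as replicates.

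UMI counts were summed per mouse and class and tested with edgeR 4.0.16 in R 4.3.3 (quasi-likelihood, TMM, filterByExpr, Benjamini-Hochberg adjustment over all genes tested, threshold 0.05). Class comparisons had the mouse as a block, and treatment comparisons had the reaction as a covariate. Single values were tested with two-sided exact permutations in scipy 1.17.1 (1225 within reactions), relations with 100000 resamples. Named were the 5 genes in every class, the 33 genes of the route and, for the XCL comparison within NK cells, the 10 genes with the largest change among those that passed. Those 10 left out XCL1, XCL2 and gate markers. The members and lists were chosen with earlier results of these data known. Alternatives were DESeq2 1.42.0, other size factors, no low-count filter, stricter gates and cell filters, a hashtag quantile of 0.95, single reactions and each mouse left out. Intervals are exact at 95%, and with the limits for 0 counts (3 counts) they cover counting error only.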

Additional observations from a re-analysis of the deposited data

Results flagged for a closer look

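A gap test within each group of 7 mice singled out 5 of 32 groups checked, where chance singles out about 1 in 20. In T cells, untreated mouse 2 stood apart, with 390 CPM of XCL1 (next highest untreated mouse 179 CPM), 520 CPM of XCL2 (next 236 CPM) and 6.50 CPM of FLT3LG (next lowest 27.4 CPM). It had 47 T cells, of which none was FOXP3+. In the cDC1 gate, XCR1 was 198 CPM in untreated mouse 5 (next 71.4 CPM), from 8 cells. CLEC9A was 467 CPM in untreated mouse 7 (next 211 CPM), from 4 cells.

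Barcodes without a single hashtag entered no comparison between mice but carried the same genes above the limit that a count of 0 allows. XCL1 stood at 690.4 CPM in the 862 NK barcodes of reaction 1 and at 712 CPM in the 79 of reaction 2. XCL2 stood at 750.1 and 806 CPM there. In the cDC1 gate (105 and 22 barcodes) XCR1 stood at 39.8 and 117 CPM and CLEC9A at 87.2 and 117 CPM.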

How the results depend on the processing

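Of the values under planned and added alternatives other than leaving out a mouse, 909 kept their direction and side of the threshold, 26 reversed, 52 lost and 13 gained the call and 20 counts moved by over 1.5 times; with a mouse left out these were 1330, 26, 41, 2 and 0. The causes were not tested. Genes called between NK and T cells numbered 3147, and 1536 with strict gates and 1226 in reaction 1, where FLT3LG was -0.58. Between CD8 and other T cells 1670 genes were called, and 468 with strict gates and 498 in reaction 1. There XCL1 passed with all genes (0.44), with a hashtag quantile of 0.95 (0.57) and in reaction 2 (0.73), with 0.32 to 0.52 on leaving out mice. XCL2 did not pass with DESeq2 (0.73), strict gates (0.86) or a stricter mitochondrial limit (0.69), turned to -0.075 in reaction 1 and ranged from 0.56 to 0.88 on leaving out mice. FLT3LG did not pass with strict gates (-0.19) or in reactions 1 (-0.41) and 2 (-0.65), and ranged from -0.68 to -0.42.

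cDC1 against cDC2 gave 570 genes, and 1274 with all genes, 883 with scaled gates and 153 in reaction 1. cDC1 against macrophages and monocytes gave 3832, and 2524 with strict gates, 2319 with at least 10 cells and 2257 in reaction 1. NK cells with against without XCL UMIs gave 121, and 288 with all genes, 217 with scaled gates, 77 with the stricter mitochondrial limit, 23 in reaction 1, 37 in reaction 2 and 2 with strict gates. cDC1 against cDC2 with strict gates or at least 10 cells, and maraviroc in cDC1 with at least 10 cells, could not be fitted.

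With maraviroc, all genes of at least 1 count gave 23 calls in NK cells, 110 in T cells and 22 in cDC1, and DESeq2 gave 1 in all kept cells. In NK cells XCL1 was 0.015 in reaction 2 (-0.23 to 0.081 on leaving out mice), XCL2 was 0.14 with strict gates and 0.085 in reaction 2 (-0.14 to 0.11), and FLT3LG was 0.020 in reaction 2. In T cells XCL1 was -0.55 in reaction 2. XCL2 in T cells was -0.25 with DESeq2, -0.0017 with other size factors, -0.055 with scaled gates, -0.12 without the reaction term and -0.55 in reaction 2 (-0.17 to 0.30 on leaving out mice). FLT3LG in T cells was -0.019 in reaction 1. CLEC9A in cDC1 was 0.052 with all genes and 0.090 in reaction 1 (-0.37 to 0.12). In all kept cells XCL1 was -0.052 in reaction 2 and FLT3LG -0.016 in reaction 1.

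Judged by p values not adjusted over the 3 shares, the cDC1 share did not pass with scaled gates (0.389) or with a hashtag quantile of 0.95 (0.435). It did not pass in reactions 1 (0.603) and 2 (0.556) alone either. The NK share difference was -0.518 in reaction 2 (-0.340 to 1.03 on leaving out mice), and that of NK cells with XCL1 was 0.193 with the stricter mitochondrial limit and 2.62 in reaction 1 (-3.50 to 2.02). With strict gates, which left 0 to 5 cDC1 per mouse, the relation of cDC1 and NK shares gave r = 0.551 (permutation p = 0.0420, not adjusted). Spearman's rho was 0.515 there (permutation p = 0.0621). With a hashtag quantile of 0.95 the relation was r = -0.0664. That of cDC1 share and XCL CPM was 0.293 in reaction 1, 0.102 in reaction 2, 0.271 with strict gates, 0.220 with scaled gates and 0.0224 with more than 1000 genes. FLT3LG in FOXP3+ against other T cells was -6.23 CPM in reaction 2. No paired analysis between treatments was possible because the mouse numbers within a treatment name nothing that the groups share. Class comparisons had the mouse as a block, and the sign-flip tests paired cell groups within mice. Scaled gates and the minimum of 3 cells were chosen after seeing the data. The receptors were read in 3 to 18 cDC1 per mouse.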
